A study of Mus musculus with 10 samples.

Results

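The enzymes that write and erase acyl groups on histone lysines were examined as chromatin targets in mouse cardiac fibroblasts. The set comprised 10 genes, chosen by gene name: the acetyltransferases Ep300, Crebbp, Kat2a, Kat2b, Kat5 and Kat8 and the deacetylases Hdac1, Hdac2, Hdac3 and Sirt3. At least 1 region was assigned to 9 of these 10 genes, out of 22473 genes with a region in the 5 tables used. Sirt3 had none there.

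The assay was CUT&Tag. An antibody bound to its target carries a transposase that cuts and tags the DNA nearby, so that the sequenced reads mark where the target sat. The cells were labelled as heart fibroblasts, and the methods describe primary murine cardiac fibroblasts treated with TGF-β, the cytokine that turns them into matrix-producing myofibroblasts. The TGF group received TGF-β, the siHK1 group received an siRNA against hexokinase 1 (HK1, the first enzyme of glycolysis) before TGF-β, and the NC group was the control. Antibodies recognized lactylated lysine 9 of histone H3 (H3K9lc) or the transcription factors c-JUN (JUN), SMAD3 and NFATC2. The siHK1 and TGF groups were compared for all 4 antibodies and the TGF and NC groups for H3K9lc, with 1 library for each group and antibody. There was therefore no replicate, and no test was made. The titles give no antibody for NC and no full siRNA name for the H3K9lc knockdown library, and both were read from the table that their labels name. Neither the strain, age and number of animals nor the efficiency of the knockdown is given in the labels, and no RNA or protein was measured in these data, so a change in expression of any of these genes was not measured.

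Acetyl and lactyl groups are attached to lysines by overlapping sets of enzymes. p300 and its paralog CBP, encoded by Ep300 and Crebbp, are coactivators that acetylate histones when transcription factors recruit them, and p300 has been reported to lactylate histones as well. HDAC1, HDAC2 and HDAC3 remove acetyl and lactyl groups in nuclear corepressor complexes, whereas SIRT3 is a mitochondrial deacylase.

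Summed over listed regions, the libraries held between 354599 and 4215447 reads, except the NC library, which held 115572. Within every pair the siHK1 library was the shallower one, with 0.539 to 0.710 times the reads of its TGF library. Counts were therefore brought to equal totals before any ratio, which hides a loss or gain common to all regions. The depth set what could be seen: in TGF a region held a median of 32 reads for JUN and 16 for H3K9lc, but 4 for SMAD3 and 3 for NFATC2. As a check of the labelled cell type, JUN reads within 3 kb of a start site were found at 7 of 7 cardiac fibroblast marker genes (824 in TGF and 445 in siHK1). They were also found at 2 of 6 cardiomyocyte (132 and 56), 3 of 4 endothelial (132 and 65) and 2 of 4 macrophage marker genes (270 and 151). The other antibodies differed from JUN: in TGF, H3K9lc held 15 reads at 1 of 7 fibroblast genes, 8 at cardiomyocyte, 64 at endothelial and 0 at macrophage genes. SMAD3 held 17 at 4 of 7 fibroblast genes, 155 at cardiomyocyte, 4 at endothelial and 6 at macrophage genes, and NFATC2 held 28, 42, 9 and 4. The part of other cells in the results was not tested.

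The members differed in which antibodies found them. In the tables of siHK1 against TGF, H3K9lc regions were assigned to 2 members, Hdac2 with 12 regions and Ep300 with 2. JUN regions were assigned to 8 members, 25 regions in all, and were missing for Kat2a and Sirt3. SMAD3 had 18 regions at 5 members and NFATC2 23 regions at 7. Of all 22473 genes, 12994 had a region in the H3K9lc table, 16970 in that of JUN, 16630 in that of SMAD3 and 17378 in that of NFATC2. In siHK1 against TGF, Hdac2 and Ep300 were the members found with all 4 antibodies. Crebbp had an H3K9lc region only in TGF against NC. Over the 5 comparisons Hdac2 alone took 46 of the 95 member regions.

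**Figure D1:**
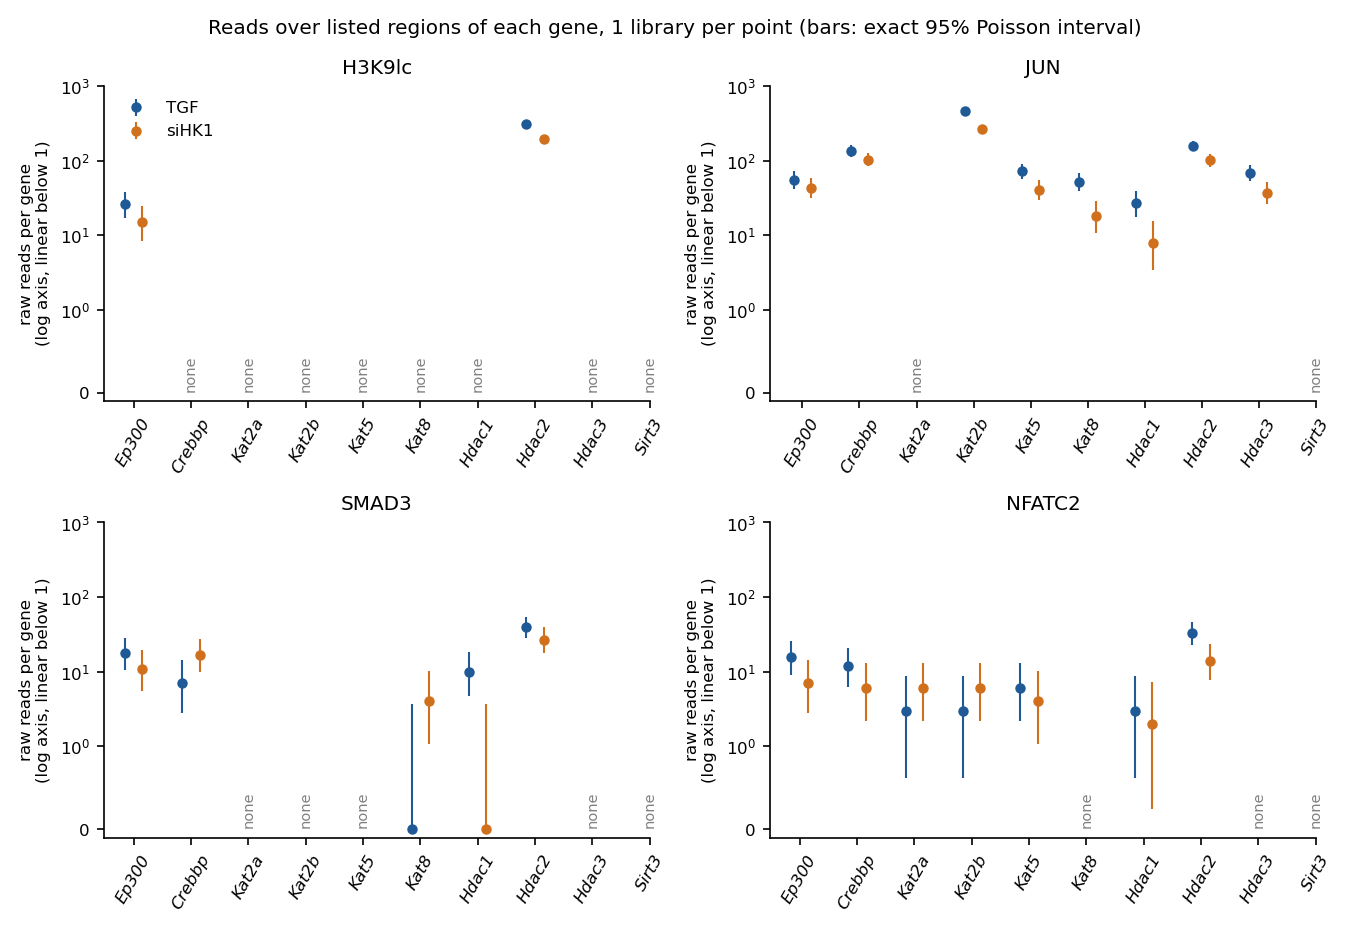
Raw reads summed over the regions of each gene (log axis, linear below 1) in the TGF library (blue) and the siHK1 library (orange), 1 panel per antibody, with exact 95% Poisson intervals that cover counting error only. JUN covers 8 members with up to 469 reads, H3K9lc is listed at Ep300 and Hdac2 alone, and SMAD3 and NFATC2 stay at 40 reads or fewer.

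6 stretches of DNA carry the results that follow and are printed from the RefSeq copy of GRCm38, plus strand, 5′ to 3′. The first pair shows 2 stretches assigned to Hdac2 on which regions of 3 antibodies overlap. At chr10:36974242-36974541, just before the Hdac2 start site, regions of H3K9lc, JUN and SMAD3 overlap on an unmasked sequence with 69.7% G and C, in which capitals mark 34 CpG dinucleotides. At chr10:36918011-36918115, between genes and 56 kb upstream, regions of H3K9lc, SMAD3 and NFATC2 overlap on a repeat that the genome file soft-masks over all 105 bases, in which capitals mark 17 overlapping or separate copies of CAGCAC.
Hdac2 start site: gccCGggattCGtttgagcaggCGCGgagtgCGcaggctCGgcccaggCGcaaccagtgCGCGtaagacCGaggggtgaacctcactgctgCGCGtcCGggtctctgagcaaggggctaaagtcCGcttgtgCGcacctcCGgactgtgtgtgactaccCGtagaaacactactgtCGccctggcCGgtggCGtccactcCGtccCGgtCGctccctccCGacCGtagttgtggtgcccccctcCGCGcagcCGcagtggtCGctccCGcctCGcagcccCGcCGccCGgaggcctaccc
Hdac2 upstream repeat: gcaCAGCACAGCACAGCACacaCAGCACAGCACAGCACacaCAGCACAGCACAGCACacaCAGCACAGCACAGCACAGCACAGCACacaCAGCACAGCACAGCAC
The next pair compares the strongest JUN region of the set with an exonic JUN region that held more reads after knockdown. They are the central 200 bases of regions at chr17:53587173-53587372 in a Kat2b intron and chr15:81650166-81650365 in an Ep300 coding exon, and capitals mark the AP-1 letters TGANTCA, the short form of the site that JUN dimers recognize.
Kat2b intron: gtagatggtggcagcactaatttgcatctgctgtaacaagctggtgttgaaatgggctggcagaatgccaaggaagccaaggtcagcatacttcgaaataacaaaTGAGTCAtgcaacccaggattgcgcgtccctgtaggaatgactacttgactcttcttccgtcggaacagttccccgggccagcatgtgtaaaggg
Ep300 coding exon: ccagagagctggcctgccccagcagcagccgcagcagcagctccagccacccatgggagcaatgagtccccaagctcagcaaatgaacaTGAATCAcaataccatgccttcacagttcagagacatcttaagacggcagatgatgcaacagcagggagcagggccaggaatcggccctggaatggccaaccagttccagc
The last pair is from Crebbp. At chr16:4214112-4214399, just before its start site, JUN and SMAD3 regions overlap (capitals mark 39 CpG dinucleotides). The other stretch is the center of an intronic JUN region with more reads after knockdown at chr16:4127693-4127892 (capitals mark the SMAD letters CAGAC and the NFAT letters GGAAA, either strand).
Crebbp start site: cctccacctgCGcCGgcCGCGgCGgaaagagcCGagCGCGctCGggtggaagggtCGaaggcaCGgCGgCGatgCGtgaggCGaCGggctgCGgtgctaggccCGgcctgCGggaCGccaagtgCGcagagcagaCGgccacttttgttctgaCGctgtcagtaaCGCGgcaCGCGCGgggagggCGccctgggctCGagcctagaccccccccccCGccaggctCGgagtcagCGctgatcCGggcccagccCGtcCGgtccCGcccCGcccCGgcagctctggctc
Crebbp intron: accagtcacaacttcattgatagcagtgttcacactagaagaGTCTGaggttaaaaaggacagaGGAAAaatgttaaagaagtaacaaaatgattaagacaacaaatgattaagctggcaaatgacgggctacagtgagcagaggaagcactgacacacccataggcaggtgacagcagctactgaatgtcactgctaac

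Ep300, which encodes p300, had JUN regions with values on both sides of 0. The JUN region on its start site (chr15:81585121-81585755, overlapping its UTR) held 32 reads in TGF and 15 in siHK1, a log2 ratio of -0.20 at equal totals (95% counting interval -1.19 to 0.73). The exonic region shown above (chr15:81649966-81650564) went the other way, from 12 reads in TGF to 25 in siHK1, a log2 ratio of 1.90 (0.90 to 3.08). Both regions were peaks in siHK1 alone. Over all JUN regions of that kind 94.7% held more scaled reads in siHK1, so the direction of the exonic region is not independent of its listing. Summed over its 3 regions, JUN gave Ep300 55 reads in TGF and 43 in siHK1, a log2 ratio of 0.53 whose interval (-0.07 to 1.14) holds 0. The sum thus mixed 2 regions with values below 0 and 1 above, and its sign turned to -0.20 when only the region within 3 kb of a start site, which was also the strongest, was counted.

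Ep300 was the one acetyltransferase gene with H3K9lc regions in the table of siHK1 against TGF. Its main H3K9lc region lay between genes, 41466 bases upstream of the start site (chr15:81543111-81543931), and held 26 reads in TGF and 12 in siHK1. A second region, in a coding exon, held 0 and 3 reads. The gene's sum was 26 and 15 reads, a log2 ratio of 0.02 (-1.004 to 0.989), so a change of up to about 2-fold in either direction was not detectable at this depth. SMAD3 gave 18 and 11 reads (log2 -0.21, -1.44 to 0.95) and NFATC2 16 and 7 (log2 -0.47, -2.02 to 0.87), and both intervals hold 0. A SMAD3 region and a JUN region overlapped by 139 bases in an Ep300 intron, with 9 and 8 SMAD3 reads and 11 and 3 JUN reads in TGF and siHK1. The other SMAD3 region, 472 bases from the start of an Ep300 transcript (chr15:81633044-81633507), held 9 and 3. The SMAD3 value thus became 0.31 with the strongest region alone and -0.99 with the region within 3 kb of a start site alone.

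Crebbp, which encodes CBP, had no H3K9lc region in the table of siHK1 against TGF, and more JUN reads per covered kb than Ep300. JUN gave Crebbp 135 reads in TGF and 103 in siHK1 over 4 regions, a log2 ratio of 0.50 with an interval (0.12 to 0.88) above 0. This was the single JUN interval of the 8 that did not hold 0, and it includes a region that was a peak in siHK1 alone; the intervals of the other 3 regions, peaks in both libraries, each hold 0. Its strongest JUN region, intronic at chr16:4199740-4200287, held 72 and 44 reads (log2 0.18, -0.39 to 0.74). The region 62 bases before the start site, printed in part above, held 27 and 18 (log2 0.30, -0.64 to 1.22). The intronic region at chr16:4127568-4128017, 604 bases from the start of another Crebbp transcript, held 17 and 24. At 2.56-fold (log2 1.36, 0.43 to 2.38) it was the 1 Crebbp region past 2-fold.

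SMAD3 gave Crebbp 7 reads in TGF and 17 in siHK1, a 3.24-fold difference (log2 1.69, 0.43 to 3.29). The reads came from 4 regions of 0 and 6, 2 and 4, 2 and 4, and 3 and 3 reads. The last lies 115 bases before the start site and overlaps the JUN region there. All 4 regions were peaks in the siHK1 library alone, which bears on the ratio as described below. NFATC2 gave Crebbp 12 and 6 reads (log2 -0.28, with an interval that holds 0), of which 11 and 1 fell in a single intronic region at chr16:4119904-4120296.

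Kat2b encodes PCAF, the catalytic acetyltransferase of a SAGA-type complex, and was the richest JUN target of the set by number of regions and reads. Its 10 JUN regions held 469 reads in TGF and 269 in siHK1, a log2 ratio of 0.09 (-0.13 to 0.31). This sum lay above those of 85.0% of genes in the JUN table. The intronic region printed above (chr17:53586788-53587757) held 216 and 127 reads (log2 0.13, -0.20 to 0.45), and a second intronic region (chr17:53577516-53578204) held 100 and 47 (log2 -0.20, -0.73 to 0.32). The region nearest to the start of the gene ended 188 bases before an annotated start and held 8 reads in each library. Regions 1093 and 2625 bases past a start held 22 and 10, and 13 and 4 reads. The strongest region lies 2662 bases from the start of another Kat2b transcript. The regions thus ran from 8 to 216 reads in TGF, and the one nearest to the start of the gene was among the lowest. The far intronic region at chr17:53650490-53650873, with 18 and 20 reads, reached 2.03-fold (log2 1.02, 0.05 to 2.05). NFATC2 gave Kat2b 3 reads in TGF and 6 in siHK1, and no H3K9lc or SMAD3 region was listed for it.

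**Figure D2:**
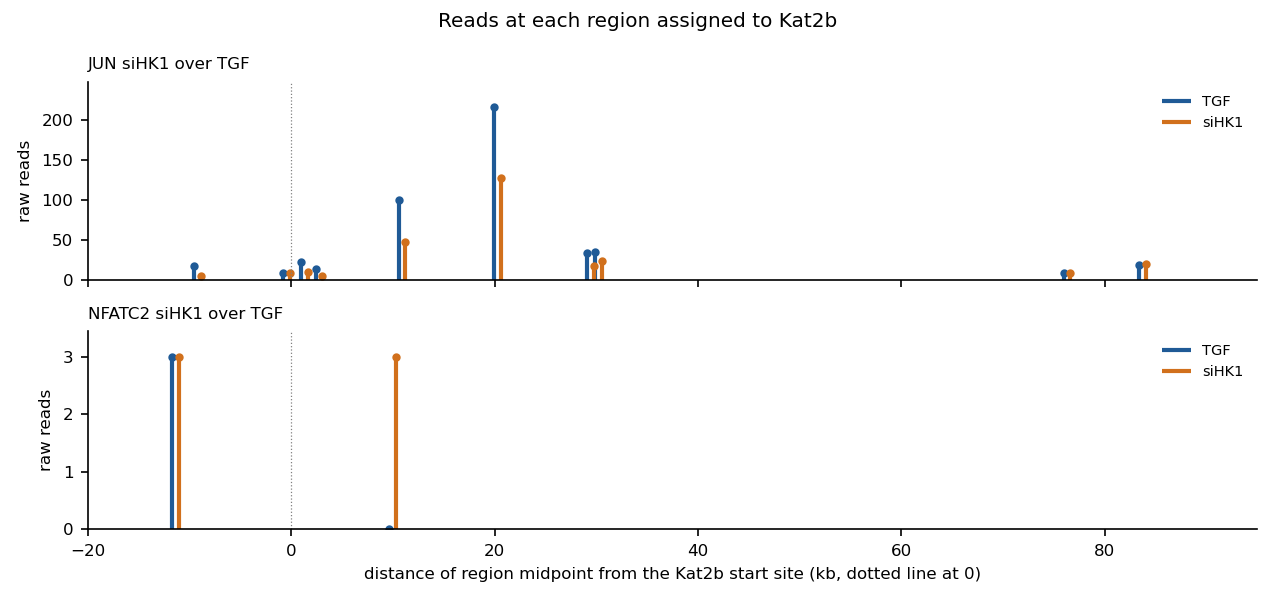
Raw reads (vertical axis) at each JUN and NFATC2 region assigned to Kat2b against the distance of the region midpoint from the Kat2b start site in kb, with the TGF library in blue and the siHK1 library in orange drawn side by side. The 2 tallest JUN regions, of 216 and 100 reads in TGF, lie inside the gene, the taller one 2662 bases from the start of another transcript. The region just before the start of the gene, which does not cover it, held 8 reads in each library.

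Kat2a, Kat5 and Kat8 were covered thinly. Kat2a encodes GCN5, the paralog of PCAF, and had NFATC2 regions only, with 3 reads in TGF and 6 in siHK1. Kat5 encodes TIP60, the acetyltransferase of the NuA4 complex, and had 1 JUN region across its start site (chr19:5609281-5610336) with 72 and 41 reads (log2 0.08, -0.51 to 0.65). An NFATC2 region of 2 and 4 reads lay within that JUN region, and NFATC2 gave Kat5 6 and 4 reads in all. Kat8 encodes MOF, which acetylates lysine 16 of histone H4. Its JUN region, also at the start site (chr7:127912177-127912906), held 52 reads in TGF and 18 in siHK1, a log2 ratio of -0.63 (-1.50 to 0.16). SMAD3 gave Kat8 0 and 4 reads in 1 intronic region, too few for a fold.

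Among the deacetylases, Hdac1 had the lowest JUN ratio of the set, and its interval held 0. Its single JUN region, in the UTR at the start of the gene (chr4:129542645-129542915), held 27 reads in TGF and 8 in siHK1, a log2 ratio of -0.84 (-2.21 to 0.32). A SMAD3 region assigned to Hdac1 held 10 reads in TGF and 0 in siHK1, at least 2.37-fold lower when the 0 is set at a floor of 3 reads. The exact interval of the siHK1 over TGF ratio, which covers counting error only, ended at 0.629. The region was a peak in TGF alone, so its direction is not independent of its listing. Its 8.55 scaled reads are also under the minimum of 10 used below. That region (chr4:129548881-129549274) lies in a coding exon of Lck, the T-cell kinase gene next to Hdac1, and 6168 bases before the Hdac1 start site. NFATC2 gave Hdac1 3 and 2 reads. Hdac3, the catalytic subunit of a nuclear corepressor complex, had 1 JUN region at its start site with 69 and 37 reads, a log2 ratio of -0.01 (-0.62 to 0.59). Regions assigned to the neighboring gene Rell2 lay within 112 bases of the Hdac3 start site: 1 of NFATC2 (5 TGF reads, 2 siHK1 reads) and 1 of H3K9lc (2 NC reads, 0 TGF reads).

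Sirt3 had no assigned region, and its start site was nonetheless inside a JUN region. Sirt3 and Psmd13, a proteasome subunit gene, start side by side and in opposite directions, and the region that spans exons of both (chr7:140881837-140882643) is assigned to Psmd13. It held 36 reads in TGF and 23 in siHK1 (log2 0.24, -0.58 to 1.04) and was a peak in both.

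Hdac2, which shares its corepressor complexes with Hdac1, was the member with most H3K9lc. Its 12 H3K9lc regions held 309 reads in TGF and 194 in siHK1, a log2 ratio of 0.14 (-0.13 to 0.40). This sum lay above those of 88.5% of genes in the table. The region over the upstream repeat (chr10:36917877-36918244) alone held 114 and 68 reads (log2 0.07, -0.39 to 0.51). The region that ended 3 bases before the start site held 14 and 15 reads, a log2 ratio of 0.88 (-0.24 to 2.07). Thus 36.9% of the TGF reads came from a region 56300 bases away from the start of the gene.

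The assignment of these regions to Hdac2 rests on distance. Of the 46 Hdac2 regions in the 5 tables, 32 lay between protein-coding genes, 9 lay in another gene and 5 in Hdac2 itself. The 3 H3K9lc regions farthest upstream, of 19, 29 and 17 reads in TGF, lie in an intron of Hs3st5, a heparan sulfate sulfotransferase gene, at up to 195806 bases from Hdac2. Repeats were common in them. In 5 of the 12 H3K9lc regions the central 200 bases were soft-masked throughout, and these 5 held 218 of the 309 reads in TGF and 134 of the 194 in siHK1. Without them the log2 ratio was 0.21. Over all H3K9lc regions the mean soft-masked share was 57.3%, against 14.8% over JUN regions.

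The region that overlaps the upstream repeat was the strongest Hdac2 region for 3 of the 4 antibodies. That of SMAD3 counted 14 TGF reads and 8 siHK1 reads (chr10:36918011-36918666) and that of NFATC2 14 and 2 (chr10:36917892-36918115), while JUN had no region there. H3K9lc in the table of TGF against NC gave it 114 reads in TGF and 1 in NC. Regions of 3 antibodies thus overlapped on the same 105 soft-masked bases. The SMAD3 region runs on beyond the repeat, and where in it the reads fell is not in the tables. How reads that fit several places in the genome were handled is not given in the sources used here, and the part of such reads was not tested.

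At the Hdac2 start site the antibodies that met were H3K9lc, JUN and SMAD3. JUN gave 56 and 34 reads there (log2 0.17, -0.49 to 0.81), and SMAD3 7 and 8 (log2 0.64, -0.97 to 2.38). Over the whole gene, JUN gave Hdac2 158 and 101 reads (log2 0.25, -0.13 to 0.62), SMAD3 40 and 27 (log2 -0.07, -0.83 to 0.67) and NFATC2 33 and 14 (log2 -0.53, -1.55 to 0.40). Every one of these intervals holds 0. Without the upstream repeat the NFATC2 value was 0.04.

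**Figure D3:**
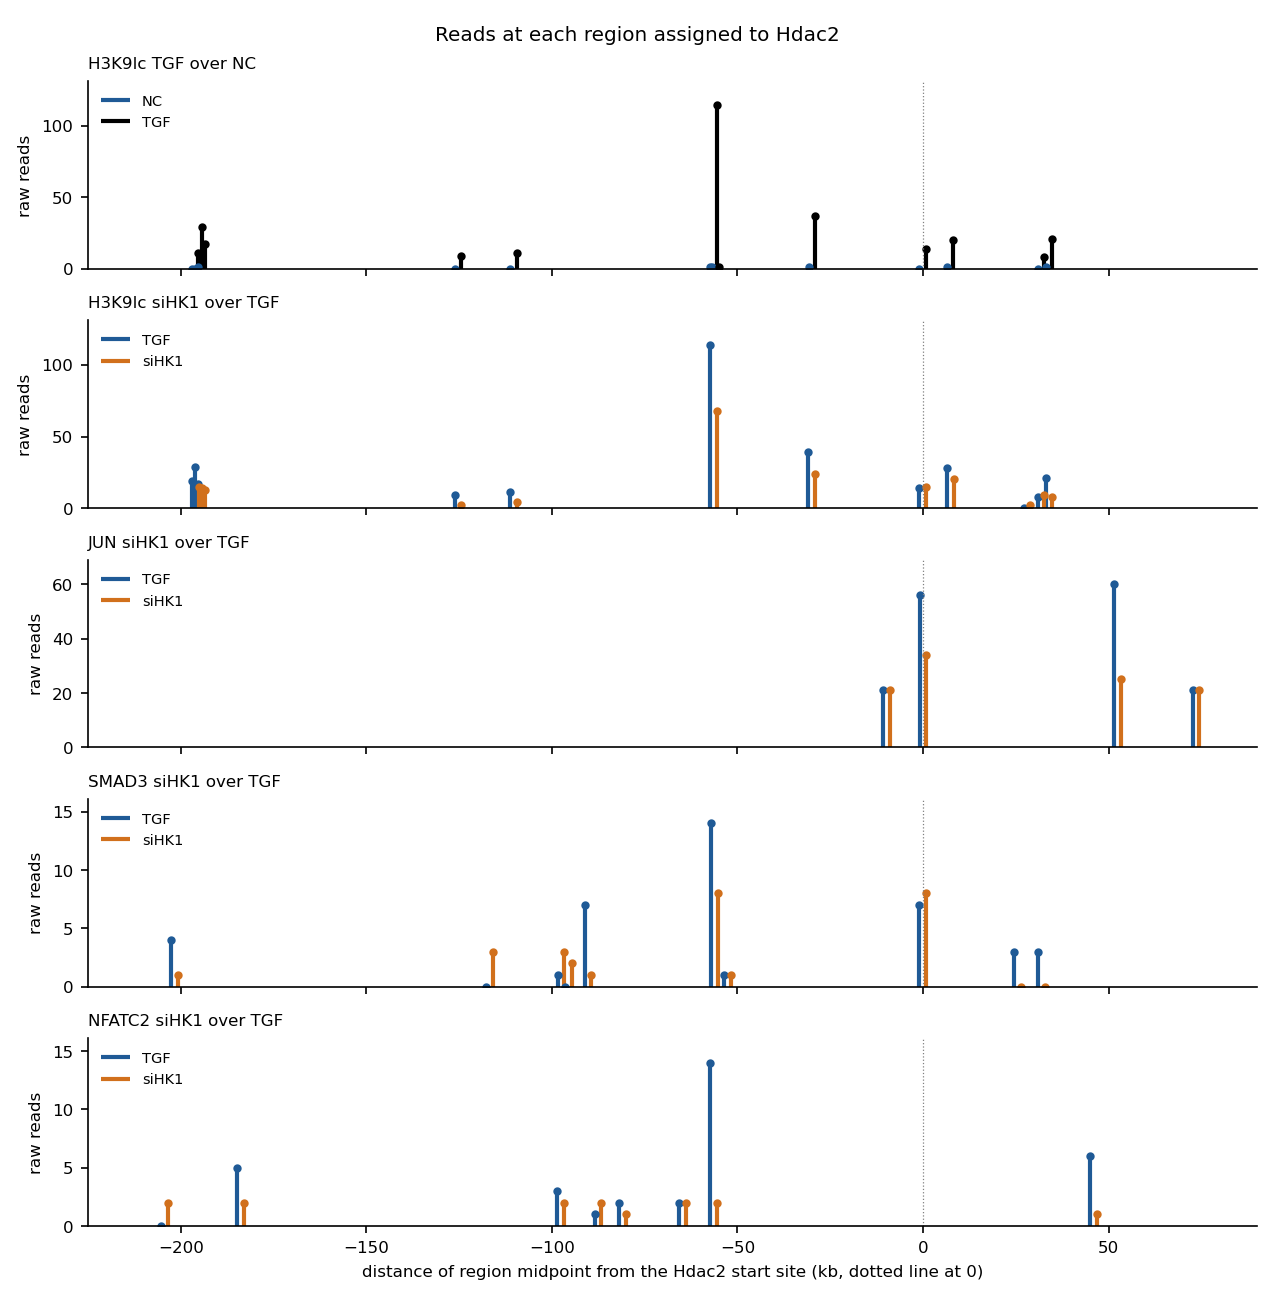
Raw reads (vertical axis, own scale in each panel) at each region assigned to Hdac2 against the distance of the region midpoint from the Hdac2 start site in kb, for the 5 tables; libraries are drawn side by side in blue (TGF, or NC in the top panel), orange (siHK1) and black (TGF in the top panel). The tallest H3K9lc, SMAD3 and NFATC2 bars share the position 56 kb upstream, whereas the JUN regions lie from 9617 bases before the start site onward.

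The genes were ranked by JUN reads per kb of covered region in TGF. This value is an average that depends on the number and width of the regions, so the order is not one of gene levels alone. It covers 1 region of 402 bases for Hdac3 and 1 of 271 for Hdac1, but 10 regions and 4789 bases for Kat2b. The strongest Kat2b region alone held 216 reads over 970 bases. Hdac3 came first at 172 reads per kb (exact Poisson interval 134 to 217), followed by Hdac1 at 99.6 (65.7 to 145), Kat2b at 97.9 (89.3 to 107), Kat8 at 71.2 (53.2 to 93.4), Crebbp at 70.6 (59.2 to 83.6), Kat5 at 68.2 (53.3 to 85.9), Hdac2 at 54.0 (45.9 to 63.1) and Ep300 at 38.7 (29.2 to 50.4). The intervals of each pair of neighbors in this order overlapped. In siHK1 Hdac3 again had the highest level at 92.0, and Kat8 the lowest at 24.7. Hdac1, which followed Hdac3 in TGF, stood at 29.5 in siHK1.

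Set against all genes, no member passed 2-fold between siHK1 and TGF for H3K9lc or JUN. A gene was counted as lower or higher when its summed reads differed at least 2-fold at equal totals, among genes with at least 10 scaled reads over both libraries. For JUN, 0 of 8 members were lower and 0 higher, beside 3.64% and 2.66% of all 16661 genes. Of the 8 ratios 3 were below 0 and 5 above, with a median of 0.08 against -0.01 over all genes. For H3K9lc, 0 of 2 were lower and 0 higher, beside 4.25% and 3.7% of all genes, with a median of 0.08 against -0.06. With so few members, counts of 0 beside such shares say little.

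The thin SMAD3 and NFATC2 counts gave wider scatter. For SMAD3, 0 of 3 members were lower and 1 was higher (Crebbp), where 11.8% of all genes were lower and 21.5% higher. The members' median was -0.07 and that of all genes 0.21. With the strongest region of each gene, or regions of at least 10 scaled reads, 0 of 2 members were higher, because no single Crebbp region held 10 scaled reads, beside 31.5% and 29.5% of all genes. With the authors' normalized values 13.1% of all genes were lower and 14.5% higher. For NFATC2, 0 of 6 were lower and 2 were higher (Kat2a and Kat2b, each with 3 reads in TGF and 6 in siHK1), where 8.94% and 15.2% of all genes were. Their ratio of 1.52 had an interval of -0.53 to 4.33. The members' median was -0.09 and that of all genes 0.11. With regions of at least 10 scaled reads, or the strongest region of each gene, 2 of 2 members (Crebbp and Hdac2) were lower and 0 higher, with a median of -2.15, beside an all-gene median of 0.02 in both settings, with 12.1% and 13.6% of all genes lower and 14.9% and 16.8% higher. Within 3 kb of a start site the median of the 2 members left, Kat2a (3 and 6 reads) and Kat5 (6 and 4), was 0.81 and that of all genes 0.11.

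**Figure D4:**
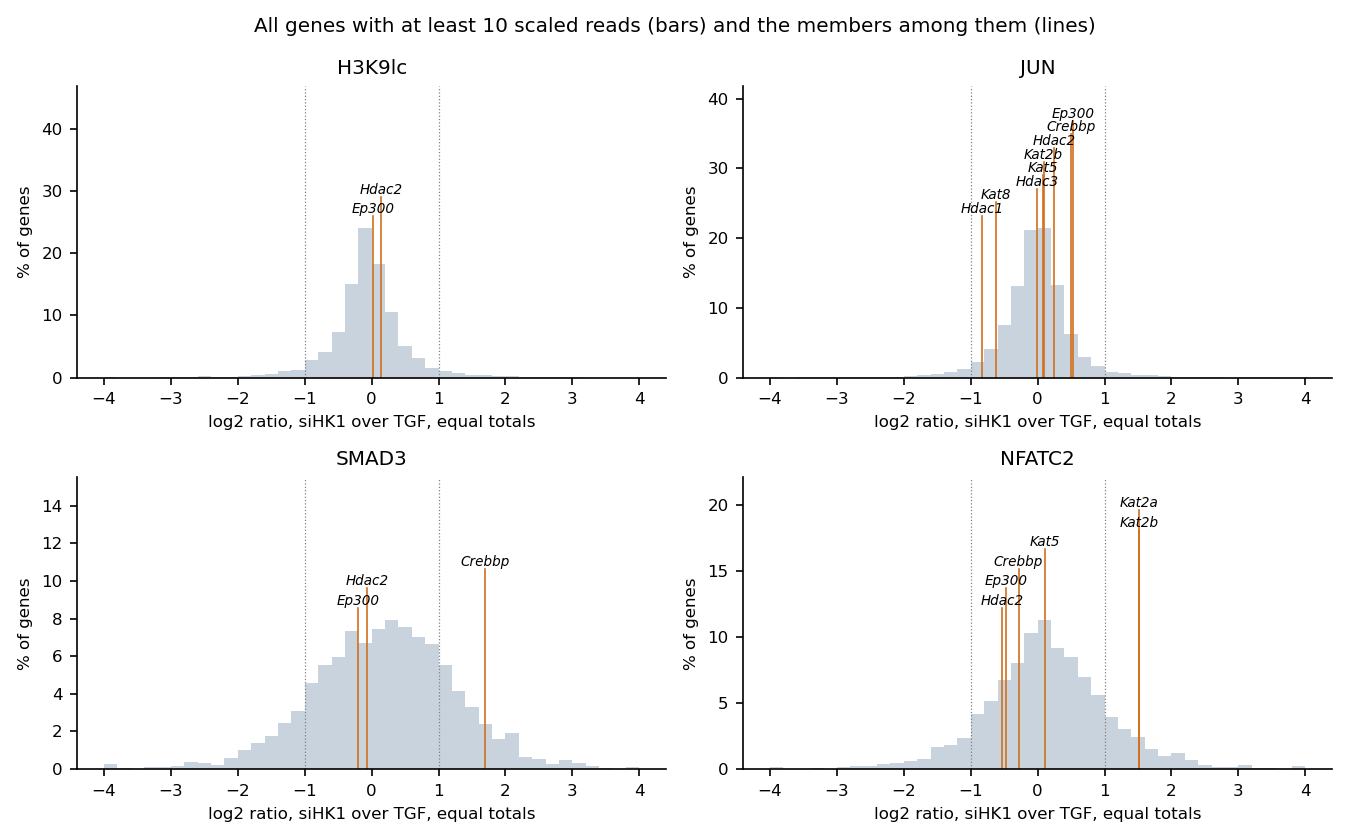
Percent of genes (bars, 0.2 wide on the log2 axis) by the log2 ratio of siHK1 over TGF at equal totals, for genes with at least 10 scaled reads, with the members among them as orange lines whose height has no meaning; dotted lines mark 2-fold and values beyond 4 are counted in the end bars. The 8 JUN members lie between -0.84 and 0.53, and only Crebbp (SMAD3) and Kat2a and Kat2b (NFATC2) lie past 2-fold.

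Single regions of the members were read in the same way. With at least 10 scaled reads, 25 JUN regions gave 0 at least 2-fold lower and 3 higher, beside 10.2% and 6.32% of all JUN regions; the 3 were those of Ep300, Crebbp and Kat2b named above. The 11 H3K9lc regions gave 0 and 0, beside 11.1% and 8.25%. The 4 SMAD3 regions gave 0 and 0, beside 15.9% and 30.9%. The 2 NFATC2 regions, those of Crebbp with 11 and 1 reads and of Hdac2 with 14 and 2, were both lower, beside 15.5% and 18.1% of all regions lower and higher.

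Most of these differences followed the library in which the region had been called a peak. No SMAD3 or NFATC2 member region was a peak in both libraries, as were 4.98% and 3.61% of all regions. All 11 SMAD3 regions called in siHK1 alone held more scaled reads in siHK1, and all 7 called in TGF alone held fewer. For NFATC2 the 13 called in siHK1 alone all held more there, and 9 of the 10 called in TGF alone held fewer. Over all SMAD3 regions the share with more reads in siHK1 was 92.4% for peaks of siHK1 alone and 6.60% for peaks of TGF alone. Nearly all regions carry a peak call made on the same reads (all but 98 of 58633 for SMAD3 and 150 of 68767 for NFATC2), so the direction of a thin region is not independent of its listing. For JUN, 14 of the 25 member regions were peaks in both libraries, as were 49.7% of all JUN regions. Of these 14, 10 held more scaled reads in siHK1, beside 56.9% over all such regions. The 2 regions with the largest JUN ratios, in the Ep300 exon and the Crebbp intron, were peaks in siHK1 alone.

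**Figure D5:**
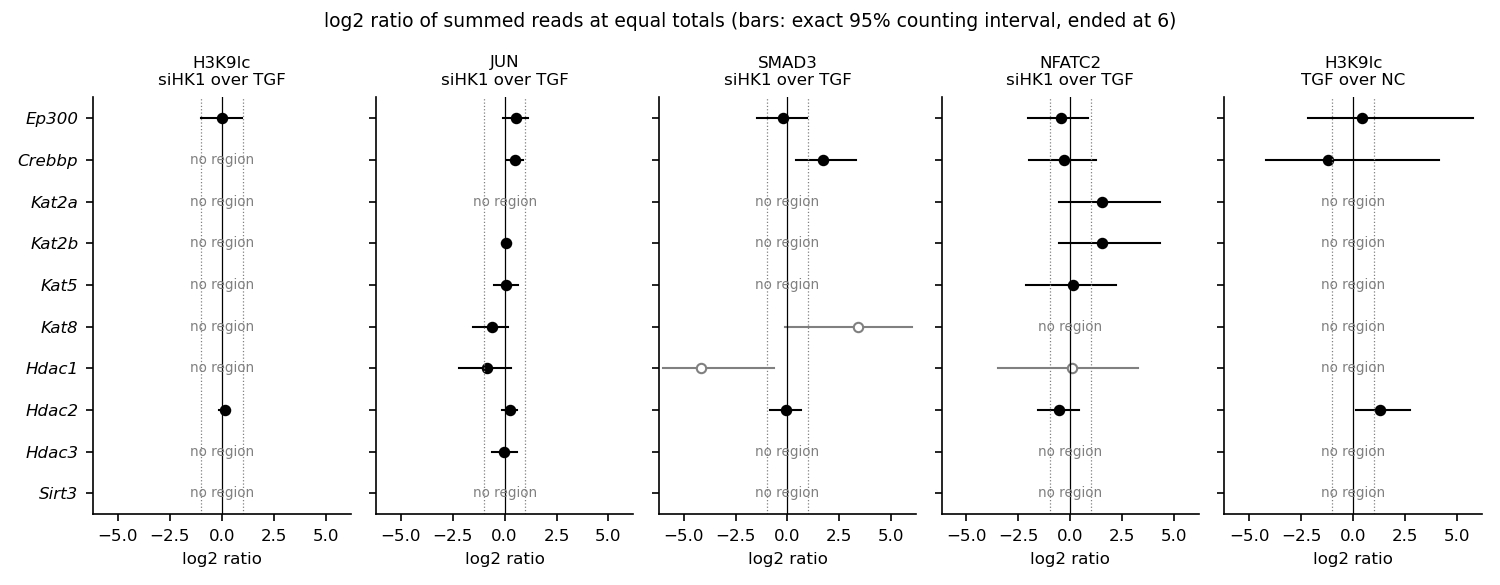
Log2 ratio (horizontal axis) of summed reads at equal totals for each member (rows) in the 5 comparisons (panels), with exact 95% counting intervals ended at 6; open gray symbols have under 10 scaled reads and dotted lines mark 2-fold. Among members with 10 scaled reads or more the intervals leave out 0 for Crebbp with JUN and SMAD3 and for Hdac2 in TGF over NC.

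In the comparison of TGF with NC for H3K9lc the control library decided the values, because each of its reads stood for 10.5 scaled reads. Hdac2 held 6 reads in NC and 292 in TGF over 12 regions, a log2 ratio of 1.28 (0.14 to 2.74). Of these, 3 and 208 reads fell in the regions that were soft-masked throughout their centers, and without those regions the ratio was 0.48. Ep300 held 1 and 27 reads (log2 0.41, -2.17 to 5.79, which turned to -3.42 on 1 and 1 reads when only regions within 3 kb of a start site were counted) and Crebbp 1 and 8 (log2 -1.23, -4.22 to 4.15). Thus 1 of 3 members was at least 2-fold higher and 1 lower, beside 21.5% and 17% of all genes (29.3% and 11.6% with the authors' normalized values). Both Ep300 and Crebbp rest on a single NC read, and Crebbp, with 1 and 8 raw reads, is lower only at equal totals.

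Position and sequence of the JUN regions were set beside those of all JUN regions, with no test of the difference. Of the 25, 13 (52.0%) were within 3 kb of the start of any annotated transcript, internal ones included, against 25.6% of all 72990. The strongest Kat2b region and the intronic Crebbp region past 2-fold are among the 13, near starts of internal transcripts. TGANTCA, which reads as itself on the opposite strand, was found in the central 200 bases of 3 of the 25 (12%), against 29.2% of all JUN regions. These 3 were the printed Kat2b and Ep300 regions and a Kat2b intronic region of 13 and 4 reads. CAGAC, searched on both strands, was in 7 of 18 SMAD3 regions (38.9%, against 38.2% of all), and GGAAA in 8 of 23 NFATC2 regions (34.8%, against 42.9%). RefSeq promoters (250 bases before to 50 after a start) matched 8 of the 10 genes with 12 windows. TGANTCA was in 2 of these, at Kat2b and Kat8, and in 7.81% of all 32851 promoters. These matches describe letters in a window and not bound sites.

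The partners of these enzymes were taken from 6 lists of 78 genes: other acetyltransferases, other deacetylases, corepressor subunits, acetyltransferase complex subunits, readers of acylated lysine, and enzymes that supply lactyl or acetyl groups. For JUN, 70 of them had enough reads, of which 1 was at least 2-fold lower (Yeats2, named after its value was seen) and 0 higher, beside 3.64% and 2.66% of all genes. Kdm1a, the demethylase of the CoREST complex, held 604 JUN reads in TGF and 409 in siHK1 (log2 0.33, 0.15 to 0.51). For H3K9lc, 3 of 35 (8.57%) were lower and 1 (2.86%) higher, beside 4.25% and 3.7% of all genes, and Tbl1xr1, a corepressor subunit, held 1206 and 681 reads (log2 -0.01, -0.15 to 0.12).

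SMAD3 gave the lists their largest counts, with 15 of 52 genes (28.8%) higher and 3 (5.77%) lower, against 21.5% and 11.8% of all genes. Acetyltransferase complex subunits made up 7 of the 15, out of 13 with enough reads, with a list median of 1.002. The lists were run under the main setting only and were not split by the library of the peak call. Under the alternatives the share of all genes higher for SMAD3 ran from 14.5% (authors' normalized values) to 42.3% (within 3 kb of a start site). Other acetyltransferases had 0 of 7 higher (median -0.18), other deacetylases 3 of 8 (0.63), corepressor subunits 4 of 11 (0.78), readers 1 of 10 (0.61) and group-supplying enzymes 0 of 3 (0.21). The complex subunit with most reads, Msl2 of the MOF complex, held 102 SMAD3 reads in TGF and 87 in siHK1 (log2 0.26, -0.16 to 0.69), and Mcrs1 held 34 and 40 (log2 0.72, 0.03 to 1.43). Among the other deacetylases, Hdac9 held 79 SMAD3 reads in TGF and 27 in siHK1 (log2 -1.04, -1.74 to -0.41). Supt20, a SAGA subunit, held 17 SMAD3 reads in TGF and 37 in siHK1 (log2 1.58, 0.75 to 2.54). With JUN the same gene held 700 and 308 reads and its value was below 0 (log2 -0.29, -0.49 to -0.10). For NFATC2, 4 of 52 (7.69%) were higher and 0 lower, beside 15.2% and 8.94% of all genes. In TGF over NC, 8 of 34 (23.5%) were higher and 7 (20.6%) lower for H3K9lc, beside 21.5% and 17%. Differences between these lists and the members were not tested.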

How the data were processed

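CUT&Tag was performed on mouse cardiac fibroblasts, 10 libraries in all, of which 9 were compared and 1, titled TGF with no antibody, was described apart. The methods name Bowtie2, MACS2 and GRCm39, whereas the submitters' processing notes list BWA 0.7.12 and mm10. All 121574 transcript coordinates compared matched GENCODE vM21, so coordinates are given on GRCm38, counted from 1. The authors deposited, per region, raw read counts in each library, a 0 or 1 mark for a called peak, normalized log2 values per library and the assigned gene. Columns of the authors' own comparison (log2 ratio, standard error, p-value, adjusted p-value, call) were not used, nor were 3 columns of a library that is no sample of this series.

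Counts were summed over all regions of a gene and brought to equal totals within a pair. Ratios are log2((second + 0.5)/(first + 0.5)) of scaled reads. 95% intervals are exact (Poisson for a sum, conditional binomial for a ratio) and cover counting error only. A gene or region was counted at 10 scaled reads or more and 2-fold. Totals are over listed regions and are not library sizes. With 1 library per group, no test was possible.

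All members were named. Single regions were described mainly from among the strongest region of a member and those within 3 kb of a start site, and not all of these are given. A start site within 3 kb may be that of any annotated transcript, internal ones included. Per related list, up to 3 genes with most reads were named. The members and lists were chosen with earlier results of these data known. The code was tested on simulated data. Alternatives were the deposited normalized log2 values, read minimum, pseudocount, region width and choice of regions. Python 3.11.15, pandas 2.3.3, NumPy 2.4.6, SciPy 1.17.1 and matplotlib 3.10.9 were used.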

Additional observations from a re-analysis of the deposited data

Results flagged for a closer look

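A library titled only TGF, with no antibody in its labels, entered no comparison and still held reads at called regions of the enzyme genes, in sums above the 3 reads that a count of 0 allows. It gave 48 reads at Hdac2, 13 at Ep300, 11 at Crebbp, 9 at Kat2b and 4 at Hdac1, and 2 at Sirt3, which is under that limit. Only at Hdac2 did a single region pass 3 reads, and sums over regions already called as peaks were bound to exceed 0. Over its 131252 called regions the median was 2 reads, and the 39 member regions held 87 reads in all, with no more than 6 in any region. Hdac2, with 19 regions, was also the member with most regions in the 5 tables compared.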

How the results depend on the processing

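No paired analysis was possible because each group had 1 library per antibody, so there was also no replicate to leave out. The JUN median and counts stayed on the same side under every alternative run. The other sets hold 2 to 6 genes, and the values turned with the regions counted. The H3K9lc median of 0.08 became 0.88 with regions within 3 kb of a start site and 0.88 within 1 kb of one, -0.11 with the strongest region of each gene and -0.072 with regions of at least 10 scaled reads. Both values of 0.88 are that of 1 Hdac2 region with 14 and 15 reads. The SMAD3 median of -0.07 became 0.16 within 3 kb, 0.0043 with the strongest region and 0.64 within 1 kb, while that of all genes went from 0.21 to 0.85 within 3 kb and 0.45 with the strongest region. Its count of 1 higher became 2 with no read minimum and 0 with the strongest region or regions of at least 10 scaled reads, and its count of 0 lower became 1 with no read minimum. The NFATC2 median of -0.09 became 0.10 with no read minimum, 0.81 within 3 kb, 0.069 without soft-masked regions, and -2.15 with the strongest region or with regions of at least 10 scaled reads; with 20 scaled reads it was -0.50 and with regions of at least 200 bases -0.47. Its count of 2 higher became 0 (20 scaled reads, strongest region, regions of at least 10 scaled reads) or 1 (within 3 kb, regions of at least 200 bases), and its count of 0 lower became 2 (strongest region, regions of at least 10 scaled reads) or 1 (regions of at least 200 bases). The TGF over NC median of 0.41 became -3.42 within 3 kb, -4.43 within 1 kb and 2.45 with the strongest region. The values below 0 follow from the read minimum, which 1 NC read passes alone: they rest on Ep300 (1 NC read, 1 TGF read) and, within 1 kb, on a Rell2 region at Hdac3 (2 and 0), while Hdac2 with 0 and 14 reads at its start site drops out. They carry no direction. Its count of 1 higher became 0 within 3 kb, within 1 kb, with regions of at least 10 scaled reads or without soft-masked regions, and 2 with the strongest region. Its count of 1 lower became 0 with the deposited normalized values or 20 scaled reads, and 2 within 1 kb. Fewer regions or genes enter under these settings, except with no read minimum (more genes), the deposited values (as many genes) and within 1 kb (regions of neighboring genes as well), and the cause was otherwise not tested. The deposited normalized values moved the median of all genes from 0.21 to 0.03 for SMAD3 and from 0.22 to 0.65 for TGF over NC. Of 197 alternative values for single members, 10 changed sign, 7 of them for Ep300. The settings within 1 kb and without soft-masked regions were chosen after seeing the data; within 1 kb NFATC2 had no gene with enough reads.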
